A study of Mus musculus with 6 samples.

Results

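The Schlafen genes are a small, fast-evolving family first described in developing and activated mouse T cells. The 6 members described here, Slfn1, Slfn2, Slfn3, Slfn5, Slfn8 and Slfn9, were taken by gene symbol from a table of 41079 genes. They were chosen by their values in the comparison of 26°C with 37°C, so their differences between the temperatures are given as a description, without a p-value. The RNA came from D10 T cells, a cloned mouse helper T cell line that recognizes chicken conalbumin, and was selected for poly(A)+ before sequencing. Non-acclimated cells were cultured at 37°C, and cold-acclimated cells were kept at 26°C for 24 h. Each temperature had 3 libraries (replicates 1, 2 and 3). According to the methods of the study, all cells were cultured with IL-2. The study describes its replicates as biological and independently prepared. D10 is a single clone, and the labels speak of old and new RNA extraction batches without saying which library belongs to which. The spread between replicates may therefore be partly technical, and its sources were not tested.

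Schlafen proteins share an amino-terminal core that is related to nucleases and binds or cleaves RNA, in several members tRNA. The short members, Slfn1 and Slfn2, hold little more than this core. Slfn3 is of intermediate length, and the long members Slfn5, Slfn8 and Slfn9 also carry a helicase-like carboxy-terminal part. Slfn2 is known from the elektra mouse, in which its loss leaves T cells unable to stay quiescent, and it shields tRNA from stress-induced cleavage. Many Schlafen genes are induced by type I interferon.

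The members lie side by side on chromosome 11, in a cluster of 9 Schlafen genes that spans 335.4 kb (chr11:82842175-83177552, GRCm39). In the GENCODE annotation, the coding sequence is 1014 bases long in Slfn1, 1137 in Slfn2, 1923 in Slfn3, 2655 in Slfn5, and 2733 in both Slfn8 and Slfn9. The coding sequence of Slfn2 was identical to that of Slfn3 at 75.4% of 1099 aligned bases and to that of Slfn1 at 71.0% of 1005. Slfn8 and Slfn9 were identical at 92.7% of 2733 aligned bases, and Slfn9 and its neighbour Slfn10 at 93.2% of 2727. Slfn5 had 57.6 to 63.6% identity to the other 8 cluster genes. This distance was not particular to Slfn5. Slfn14 had 59.8 to 62.7% identity to the others, and Slfn2 and Slfn9 were identical at 59.3% of 1015 aligned bases. Reads of the closest copies could be misassigned, so the values of Slfn8 and Slfn9, and of Slfn3 beside Slfn4 (92.2% of 1788 aligned bases), are less certain than those of Slfn2. No stretch of 150 bases of the annotated Slfn1, Slfn2, Slfn5 or Slfn8 transcripts occurred unchanged in another gene. For Slfn9, 1.31% of such stretches did, all in Slfn10.

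The sequence before the annotated start was searched in each gene for the letters GAAANNGAAA, the core of the interferon-stimulated response element, and TTCNNNGAA, the gamma-activated site, on both strands. Among 21770 windows of 300 bases, taken before protein-coding genes of the annotation, 4.20% held the first motif and 9.36% the second. Of the 6 members, Slfn8 and Slfn9 held the first motif, on the opposite strand, and none held the second. The start of Slfn9 in the deposited table lies 385 bases upstream of the start used here, so only a short stretch of it is shown. The start of Slfn2 used here lies 329 bases upstream of its start in the table. The stretches of 30 bases around the matches are at chr11:82911670-82911699 for Slfn8 and chr11:82882687-82882716 for Slfn9 (GRCm39, minus strand), with the match in capitals. They are shown because this pair carries the only matches, and Slfn2 because its levels differed most between the temperatures.

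Slfn8: agaaaatttgagcagTTTCGTTTTCcccaa

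Slfn9: agaaaatccgagcagTTTCGTTTTCccaaa

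Slfn2: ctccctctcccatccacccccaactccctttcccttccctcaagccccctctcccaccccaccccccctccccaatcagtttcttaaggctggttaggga

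The Slfn8 and Slfn9 stretches were identical at 27 of 30 bases. The first base of the match lay 15 bases upstream of the start in Slfn8 and 45 bases in Slfn9. The 100 bases before Slfn2 (chr11:82955509-82955608, plus strand) hold neither motif and have no capitals. A match describes letters and does not show a site in use, and a window without one says nothing about the factor.

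The libraries held 16899628 to 31290854 reads on genes, as recovered from the deposited values, which are in TPM (a level of transcripts, that is, a read number divided by gene length and scaled to the same total in every library). Markers of T cells summed to 2846 to 4492 TPM at 37°C and 3203 to 4181 at 26°C, and 9 of the 10 exceeded a mean of 1 TPM. Cd4 went against the CD4+ label in replicates 1 and 2, where it was at 0.0351 to 1.30 TPM, compared with 310 and 328 TPM in replicate 3. Other T cell markers set replicate 2 apart. In non-acclimated and cold-acclimated replicate 2, Trac was at 14.96 and 12.82 TPM, compared with 128.5 to 206.9 in the other libraries. Cd28 was at 7.349 and 5.613 TPM there, compared with 27.93 to 54.49 elsewhere. Cd3d was at 64.3 and 78.62 TPM, compared with 240.1 to 332.4 elsewhere. Lck was also lowest in replicate 2 at both temperatures, which Cd3e, Cd3g, Zap70 and Gata3 were not. The sum of 8 B cell markers was 1.02 to 3.62 TPM over all libraries, with Ms4a1 at 0, and that of 8 macrophage markers was 2.69 to 21.4, with Cd14 at 0 and Lyz2 highest in replicate 3. The sum of 8 erythroid markers was 84.4 to 491 TPM, of which Hba-a1 gave 60.8 to 485 and Epor up to 23.0, with Hbb-bs and Hbb-bt at 0. The sum of 10 cell cycle markers was 2512 to 2761 TPM at 37°C, 837 and 505 TPM in cold-acclimated replicates 1 and 2, and 2308 TPM in cold-acclimated replicate 3, so that this library stood near the non-acclimated ones. Log2 fold changes of the tested members are therefore also given without both libraries of replicate 3.

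Slfn2 was the most abundant of the 6 members in every non-acclimated library and ranked 4 of 6 in every cold-acclimated library. Its level was 27.1, 39.8 and 38.5 TPM in non-acclimated replicates 1, 2 and 3, and 1.88, 1.07 and 3.24 TPM after cold acclimation. All cold-acclimated libraries were far below all non-acclimated ones, and the groups did not overlap. The means were 35.1 ± 6.99 TPM and 2.06 ± 1.10 TPM (SD, n = 3 each), a ratio of 17.1, and the ratios within replicates 1, 2 and 3 were 14.4, 37.2 and 11.9. These levels rested on 309, 544 and 771 reads at 37°C and on 27, 16 and 55 reads at 26°C. The limma log2 fold change on the log2(TPM + 1) scale, which understates changes of low genes, was -3.60 (SE 0.34) and stood in place 6 from the lowest among 12227 tested genes. It was -3.79 without replicate 3, and ranged from -4.14 to -3.27 over all 12 alternatives of the processing, in each of which it met the thresholds for a lower level. In a bulk sample, fewer cells that express a gene and less RNA per cell cannot be told apart.

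**Figure D1:**
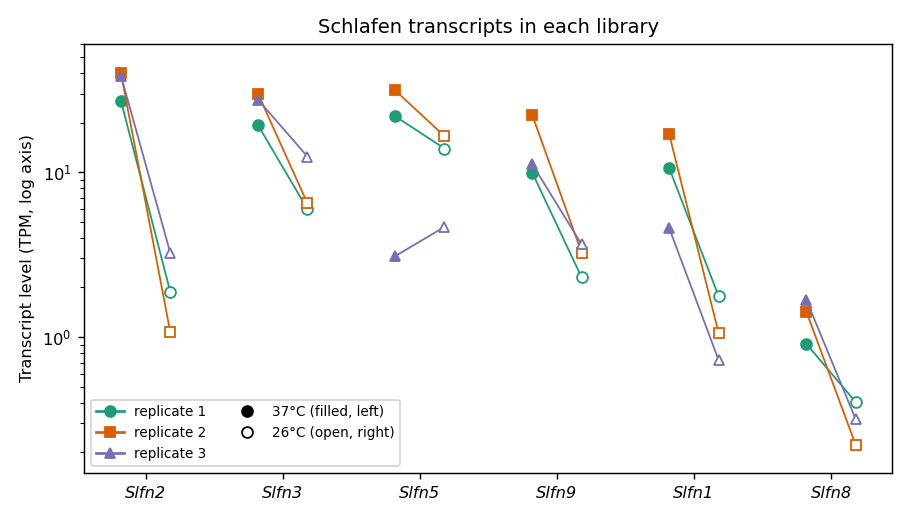
Level of each Schlafen member in each library, in TPM on a log axis. Filled symbols on the left are the 37°C libraries and open symbols on the right the 26°C libraries, and lines join libraries with the same replicate number. Slfn2 drops from 27.1 to 39.8 TPM down to 1.07 to 3.24 TPM, whereas the replicate 3 libraries of Slfn5 lie below all others at both temperatures.

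Slfn1, the other short member, was at 10.6, 17.0 and 4.57 TPM without cold acclimation and at 1.77, 1.06 and 0.725 TPM with it. The groups did not overlap, although the values in replicate 3 were the lowest of their group at both temperatures. The means were 10.7 ± 6.20 and 1.18 ± 0.535 TPM, a ratio of 9.04, with a log2 fold change of -2.29 (SE 0.46). Its reads at 26°C numbered 29, 18 and 14.

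Slfn3, of intermediate length, was at 19.3, 29.9 and 27.6 TPM without and at 5.98, 6.49 and 12.5 TPM with cold acclimation. Again the groups did not overlap, and cold-acclimated replicate 3, the library with the high cell cycle sum, lay nearest to the non-acclimated ones. Whether the cell cycle markers have a part in this was not tested. The ratio of the means, 25.6 ± 5.57 to 8.31 ± 3.60 TPM, was 3.08 and the log2 fold change -1.56 (SE 0.34).

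Among the long members, Slfn9 was at 9.95, 22.3 and 11.2 TPM without and at 2.31, 3.26 and 3.66 TPM with cold acclimation. The groups did not overlap, and the means of 14.5 ± 6.79 and 3.08 ± 0.694 TPM gave a ratio of 4.71 and a log2 fold change of -1.86 (SE 0.36). The gene length behind these TPM values was 10874 bases, whereas that behind Slfn2 was 1664 bases. Slfn9 rested on at least 217 reads in every library.

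Slfn8 was the least abundant member in every library, at 0.909, 1.43 and 1.68 TPM without and 0.404, 0.222 and 0.318 TPM with cold acclimation. The groups did not overlap, and the ratio of means was 4.26, but the cold-acclimated values rested on 14, 8 and 13 reads. Its mean over all libraries, 0.826 TPM, was under the minimum of 1 TPM for the test, so Slfn8 was not tested.

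Slfn5, a long member known as a nuclear regulator of interferon-stimulated transcription, was at 21.9, 31.4 and 3.10 TPM without and at 13.9, 16.6 and 4.66 TPM with cold acclimation. The groups overlapped, because both libraries of replicate 3 were lower than the other 4 libraries. The log2 fold change was -0.35, with an SE of 0.80 in the main fit, which has no replicate term. With the replicate number as a block the SE was 0.31, and neither fit met the thresholds. Within replicates 1, 2 and 3 the log2 difference between 26°C and 37°C was -0.62, -0.88 and 0.46. It was -0.75 over the fit without replicate 3, and 0.03 when the libraries were rescaled by the median of ratios. The reads behind the replicate 3 values numbered 237 at 37°C and 302 at 26°C, compared with 766 to 1641 in the other libraries, although the replicate 3 libraries were the most deeply sequenced at each temperature.

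Thus 4 of the 5 tested members met the thresholds for a lower level at 26°C (limma with Benjamini-Hochberg adjustment, p under 0.05, and at least 1 log2 unit of change). Among all 12227 tested genes, 1954 or 16.0% were called lower and 321 or 2.63% higher, and after median of ratios scaling the numbers were 1052 and 840. In 4 of the 5 tested members every 26°C library lay below every 37°C library, which held for 31.4% of the tested genes. Slfn8, which was not tested, showed the same. The median log2 fold change of the 5 tested members was -1.86, compared with -0.34 for all tested genes. After median of ratios scaling the median of all tested genes was 0.03. The members then stood at -3.27 (Slfn2), -1.98 (Slfn1), -1.50 (Slfn9), -1.17 (Slfn3) and 0.03 (Slfn5). The temperature comparison chose the members, so nothing further is read from these counts. The call of Slfn2 held with each of the 6 libraries left out in turn. Slfn1 and Slfn3 lost theirs without replicate 1 or replicate 2 of either temperature, and Slfn9 without non-acclimated replicate 2 or cold-acclimated replicate 1 or 2. Slfn1 also lost it without the filter on low values. Under these settings the log2 fold changes were still -1.38 or lower in all of these genes. With the replicate number as a block, all 4 calls were kept. They were also kept without both libraries of replicate 3, with log2 fold changes of -2.59 for Slfn1, -1.79 for Slfn3 and -2.09 for Slfn9.

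**Figure D2:**
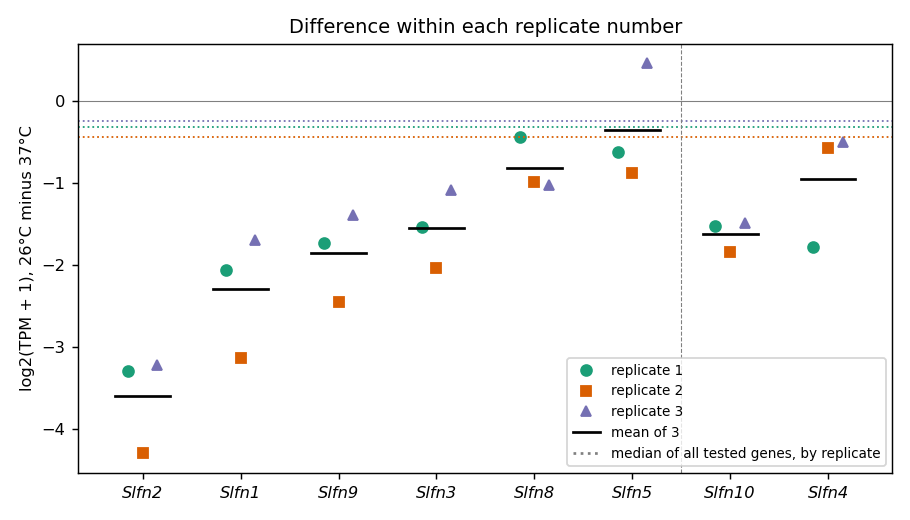
Difference in log2(TPM + 1) between the 26°C and the 37°C library of each replicate number. Symbols are replicates, black bars their mean, and dotted lines the median of all 12227 tested genes in each replicate (-0.32, -0.44 and -0.24); the 6 members are left of the dashed line. Slfn2 lies at -3.29, -4.30 and -3.22, and Slfn5 has values on both sides of 0.

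The order of the levels differed between the temperatures. At 37°C it was Slfn2, Slfn3, Slfn5, Slfn9, Slfn1 and Slfn8 by mean TPM, from 35.1 down to 1.34. The ranges of neighbours in this order overlapped, except between Slfn1 and Slfn8. At 26°C it was Slfn5 (11.7 ± 6.25 TPM), Slfn3, Slfn9, Slfn2, Slfn1 and Slfn8. There Slfn9 and Slfn2 overlapped in range, as did Slfn2 and Slfn1, and Slfn5 and Slfn3.

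All 9 Schlafen genes of the cluster summed to 109.5, 163.9 and 120.4 TPM in non-acclimated replicates 1, 2 and 3 and to 31.6, 35.9 and 37.5 TPM in the cold-acclimated ones. The ratio within replicates was 3.46, 4.57 and 3.21. Slfn2 made up 24.7, 24.3 and 32.0% of this sum at 37°C and 5.93, 2.98 and 8.64% at 26°C. The share of Slfn5 was 20.0, 19.2 and 2.58% at 37°C and 44.1, 46.2 and 12.4% at 26°C, higher with cold acclimation within each replicate. A share can rise without a rise in the gene itself, as the Slfn5 levels of replicates 1 and 2 show.

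**Figure D3:**
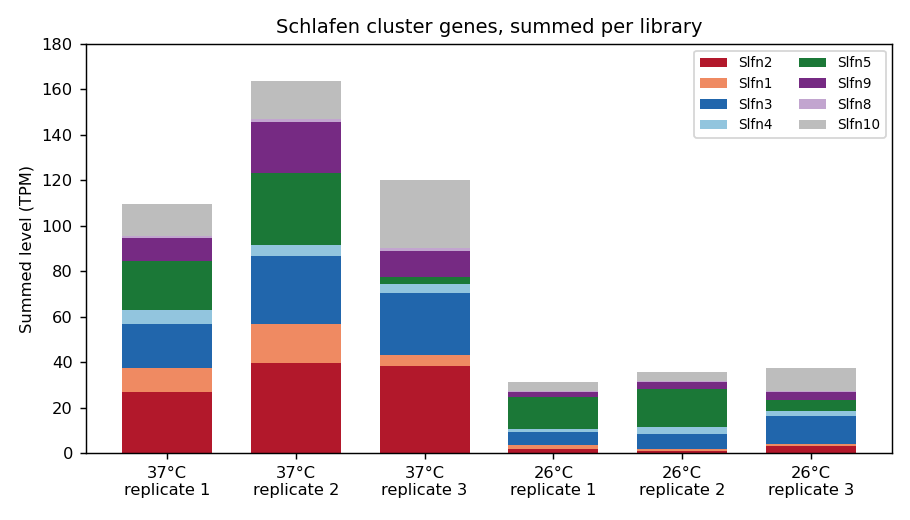
Summed TPM of the Schlafen cluster genes in each library, split by gene (Slfn14, at most 0.156 TPM, is too low to see). The 37°C bars reach 109.5 to 163.9 TPM and the 26°C bars 31.6 to 37.5 TPM, and the Slfn2 segment at the base shrinks most.

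The replicate numbers gave a comparison that the choice of members did not use. Each number holds 1 library of each temperature, and libraries with the same number deviated together from their group means. limma's F test of the replicate term, with temperature in the fit, called 442 of the 12227 tested genes (3.61%). Slfn5 was the only tested member among them, with F = 21.0 and an adjusted p of 0.042. Its mean log2(TPM + 1) over both temperatures was 4.21, 4.58 and 2.27 in replicates 1, 2 and 3. The adjusted p was 0.55 for Slfn2, 0.30 for Slfn1, 0.38 for Slfn3 and 0.42 for Slfn9, which does not show that these genes were equal between replicates. The Slfn5 call was near the threshold. It was lost without the filter on low values and without replicate 1 or 2 of either temperature. Over the alternatives that keep all 6 libraries, the limma adjusted p ranged from 0.014 to 0.22. Slfn1 passed the test without cold-acclimated replicate 3 and Slfn3 without non-acclimated replicate 3. With 1 library left out, 1 replicate number rests on a single library. Such fits cannot show a difference that both temperatures share, so their p-values and counts are not given. Cd4 and Lyz2 were also set apart in replicate 3, in the direction opposite to Slfn5, and their part in its difference was not tested.

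Across the 6 libraries, Pearson's r of log2(TPM + 1) with Slfn2 was 0.96 for Slfn3, 0.96 for Slfn8, 0.94 for Slfn9, 0.88 for Slfn1 and 0.06 for Slfn5. The 6 points share their temperatures, so these values describe the libraries and no more. Of 9735 other tested genes with a mean of at least 5 TPM, the 5 whose centred profile lay nearest to that of Slfn2 were Zfp638, Arel1, Otulinl, Map3k1 and Trmt1l, at Euclidean distances of 0.38, 0.72, 0.84, 0.85 and 0.86 on the log2 scale and with r from 0.98 to 1.00. Zfp638, which encodes a zinc finger protein, was at 41.8, 58.0 and 48.7 TPM without and at 2.16, 1.73 and 4.97 TPM with cold acclimation. As in Slfn2, cold-acclimated replicate 2 was the lowest library and cold-acclimated replicate 3 the highest of the cold-acclimated group. The choice of genes by nearness to Slfn2 in these same libraries favours such a shared order.

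The other Schlafen genes of the table are not members. Slfn10, named Slfn10-ps in older annotation, was at 13.9, 16.9 and 29.9 TPM without and at 4.14, 4.01 and 9.98 TPM with cold acclimation. The groups did not overlap, and its log2 fold change was -1.62 (SE 0.42, limma adjusted p = 0.034). This call held in 5 of 12 alternatives. It was lost without the filter, with median of ratios scaling and without any 1 library other than cold-acclimated replicate 3, with log2 fold changes from -1.99 to -1.25 over all of them. Slfn4, known mainly from myeloid cells, was at 5.99, 5.18 and 3.85 TPM without and at 1.04, 3.17 and 2.43 TPM with cold acclimation. Its groups did not overlap, but its log2 fold change of -0.95 (SE 0.35, limma adjusted p = 0.093) did not meet the thresholds. Slfn14 had 0 reads in the 3 non-acclimated libraries, which allows up to 0.0673 to 0.118 TPM at 3 reads and covers counting error only, and it had 5, 1 and 0 reads after cold acclimation. Slfnl1, on chromosome 4 and outside the cluster, was listed at 0 in all libraries.

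Other genes within the cluster and at its flanks did not all move with Slfn2. The long noncoding RNA gene Slfnlnc, 158.5 kb downstream of the Slfn2 start and next to Slfn3, was the most abundant gene of the cluster, at 271, 275 and 341 TPM without and 84.9, 90.1 and 211 TPM with cold acclimation. The groups did not overlap, and its log2 fold change was -1.32 (SE 0.37, limma adjusted p = 0.043). The call held in 5 of 12 alternatives and was lost without the filter, with median of ratios scaling and without any 1 library other than cold-acclimated replicate 3. Slfn5os, antisense to Slfn5, was at 7.88, 13.4 and 1.59 TPM without and 5.03, 6.78 and 2.90 TPM with cold acclimation. Like Slfn5, it was lowest in replicate 3 at both temperatures. The strand setting of the read counting is not given in the sources used here, so reads of the pair could not be told apart with certainty. Gm20234, antisense within Slfn2, stayed at 0.773 to 1.79 TPM in all libraries, and its log2 fold change was -0.08. The microRNA gene Mir7679, inside Slfn9, had 3, 1 and 3 reads at 37°C and 0 at 26°C, so no fold change is given.

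On the left flank, Nle1, a ribosome biogenesis factor, was at 32.3, 43.5 and 51.2 TPM without and at 118, 119 and 70.7 TPM with cold acclimation. It was higher in all cold-acclimated libraries, with a log2 fold change of 1.24 (SE 0.30, limma adjusted p = 0.027). This call was lost without the filter and without replicate 1 or 2 of either temperature. Unc45b, between Nle1 and the cluster, had at most 2 reads in any library. On the right flank, Ap2b1, an adaptor of clathrin-coated vesicles, had a log2 fold change of -0.61 (limma adjusted p = 0.085) and was not called.

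**Figure D4:**
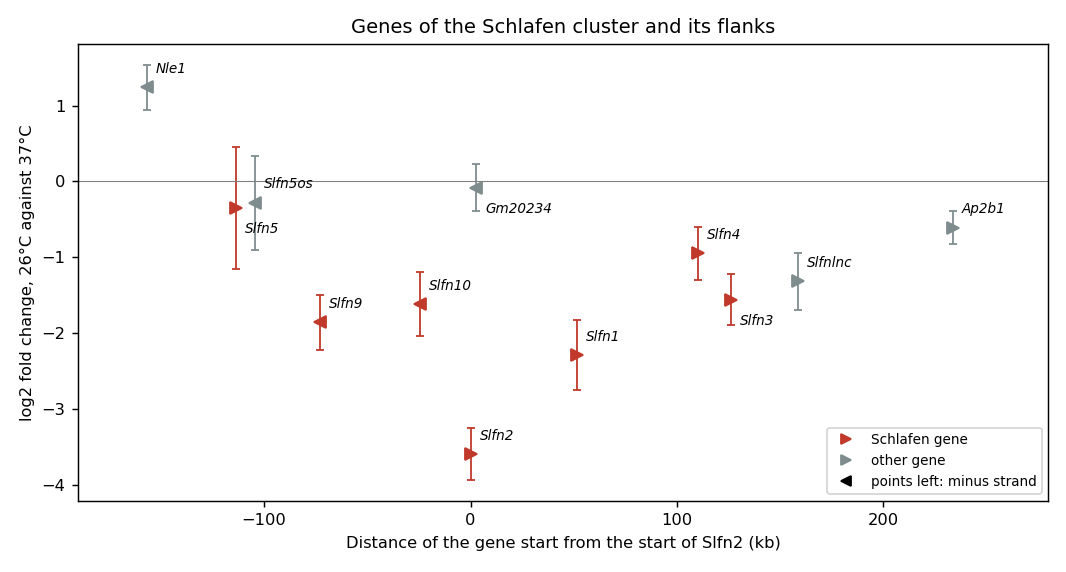
log2 fold change (26°C against 37°C, bars are the standard error) of tested genes against the distance of their start from the Slfn2 start, in kb. Schlafen genes are red and other genes grey, the triangle points along the strand, and Mir7679, with at most 3 reads, is left out. Slfn2 is lowest at -3.60, and Nle1 on the left flank is the only gene above 0, at 1.24.

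Interferon-stimulated genes, the programme to which many Schlafen genes belong, were examined as a list of 44 genes, of which 42 were tested. 8 of them (19.0%, compared with 16.0% of all tested genes) were called lower, among them Oas1b, Oas3, Rigi, Parp14, Cmpk2, Adar and Samhd1, and 0 were called higher by limma, by voom, or at an unadjusted p under 0.05 by either. The median log2 fold change of the list was -1.21, compared with -0.34 for all tested genes. Oas3, a sensor of double-stranded RNA, fell by 3.05 on the log2 scale (limma adjusted p = 0.00697). The number called lower was 19 with the replicate block, under which 2679 of all tested genes were called lower, and 31 without both libraries of replicate 3, where all genes gave 3107. It was 31 without non-acclimated replicate 3 alone, where all genes gave 1821. It was 3 without replicate 1 of either temperature or cold-acclimated replicate 2, where all genes gave 469 to 599. When non-acclimated replicate 2 was left out it was 1, and all genes gave 332. The 3 most abundant genes of the list were not called. Bst2, which tethers virus particles to the cell surface, was at 1512, 1874 and 338 TPM without and 1073, 1817 and 510 TPM with cold acclimation. It resembled Slfn5 in being lowest in replicate 3 at both temperatures, and its replicate effect had a limma adjusted p of 0.027. The immunoproteasome genes Psmb8 and Psmb9 had log2 fold changes of -0.66 and -1.14 (limma adjusted p = 0.13 and 0.11), and Psmb9 was called lower without non-acclimated replicate 3 and without both libraries of replicate 3.

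Of 34 genes of T cell quiescence, the state with which Slfn2 is associated, 27 were tested and 4 were called lower (Btg2, Dgka, Ikzf1 and Zfp36), a share of 14.8% that lay near the 16.0% of all tested genes. By limma 0 were called higher, with 1 higher at an unadjusted p under 0.05, and by voom also 0, with 3. The median of the list was -0.72. Ikzf1, an Ikaros family transcription factor, was at 112, 131 and 144 TPM without and at 41.0, 44.8 and 60.1 TPM with cold acclimation, a log2 fold change of -1.40 (SE 0.24, limma adjusted p = 0.011). Its call was lost with median of ratios scaling, and with non-acclimated replicate 2 or cold-acclimated replicate 1 left out. Ets1 and Cdkn2c, at -1.37 and -1.10 (adjusted p = 0.11 and 0.17), were not called, but both were called lower with the replicate block, without cold-acclimated replicate 3 and without both libraries of replicate 3. In both genes cold-acclimated replicate 3 lay among the non-acclimated libraries. With the replicate block, 9 genes of this list were called lower, where all tested genes gave 2679. The number was 7 when cold-acclimated replicate 3 was left out, where all genes gave 2734. It was 2 without non-acclimated replicate 1 or cold-acclimated replicate 2, where all genes gave 521 and 599. Leaving out non-acclimated replicate 2 or cold-acclimated replicate 1 gave 1, compared with 332 and 469 of all genes.

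Of 21 genes for tRNA cleavage, protection and repair, the process in which Slfn2 acts, 20 were tested. By limma, 2 of them (10%, compared with 16.0% of all tested genes) were called lower. Without replicate 1 or 2 of either temperature 0 genes of the list were called lower, where all tested genes gave 332 to 599. Without cold-acclimated replicate 3 there were 5, where all tested genes gave 2734. Again 0 were called higher by limma or voom, with 2 and 4 higher at an unadjusted p under 0.05. The median was -0.11, above that of all tested genes. Ssb, which binds the ends of new RNA polymerase III transcripts, was at 222, 258 and 203 TPM without and 384, 357 and 359 TPM with cold acclimation. All cold-acclimated libraries were higher, but the log2 fold change of 0.69 (limma adjusted p = 0.052) did not meet the thresholds, as it did after median of ratios scaling. Nsun2, a tRNA methyltransferase, and Rtraf, a subunit of the tRNA ligase complex, were at 0.71 and 0.09 and were not called (limma adjusted p = 0.20 and 0.80). Nsun2 was called higher without non-acclimated replicate 3 and without both libraries of replicate 3.

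**Figure D5:**
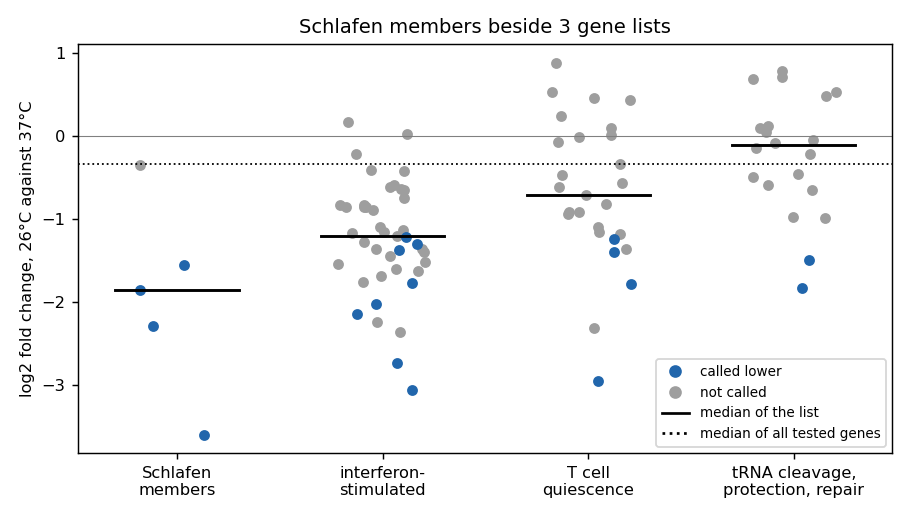
log2 fold change (26°C against 37°C) of each tested gene of the Schlafen members and of 3 gene lists. Blue points were called lower and grey points were not called, black bars are the medians of each list (-1.86, -1.21, -0.72 and -0.11), and the dotted line is the median of all tested genes (-0.34).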

How the data were processed

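The authors isolated poly(A)+ RNA, made directional libraries and sequenced paired ends. The submitters' processing notes name FastQC 0.11.7, Trimmomatic 0.38, HISAT2 2.1.0 and featureCounts 1.6.3 with GRCm39. TPM values for 6 libraries were used as deposited by the authors. Because the TPM of a gene were multiples of 1 step, the read numbers behind them could be worked out, and were whole within 1e-06 reads for all 21195 genes above 0.

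Genes with a mean of at least 1 TPM (12227) were fitted as log2(TPM + 1) with limma 3.58.1 in R 4.3.3, with a mean-variance trend and Benjamini-Hochberg adjustment over all of them, and called where the adjusted p was under 0.05 with at least 1 log2 unit of change. The replicate term was tested by an F test with temperature in the fit. The deviations of libraries from their group means correlated across genes at 0.48, 0.50 and 0.51 for the same replicate number and at -0.41 to 0.02 otherwise, so the numbers were taken to pair the libraries. matplotlib 3.10.9 drew the figures, and pandas 2.3.3 and numpy 2.4.6 under Python 3.11.15 gave the other values. Coding sequences and windows were read from GENCODE and GRCm39 and aligned with Biopython 1.88. Protein sequences were not used here. The scripts were tested on simulated data, in which most genes had no replicate effect. That test concerns the scripts and does not vouch for the calls in these libraries.

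The members and lists were chosen with earlier results of these data known. Named genes are the members, the other Schlafen genes, the 3 most abundant tested genes of each list, genes within the cluster and the 2 protein-coding genes on each side, and the 5 genes most like Slfn2. Oas3 was given values after its values were seen. Some genes that this rule names, or that were called, are not reported here. Alternatives were a pseudocount of 0.1, no filter on low values, median of ratios scaling, voom on the recovered reads, the replicate block, each library left out in turn and, chosen after seeing the data, both libraries of replicate 3 left out.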

Additional observations from a re-analysis of the deposited data

How the results depend on the processing

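Slfn2 met the thresholds under all 12 alternatives, Slfn9 under 9, Slfn3 under 8 and Slfn1 under 7, always with a lower level at 26°C, and Slfn5 under none, with log2 fold changes from -1.26 to 0.24. Without the filter the numbers of genes called higher and lower were 184 and 1121, and 0 genes had a replicate effect by limma, with 3189 of 21195 at an unadjusted p under 0.05. After median of ratios scaling they were 840 and 1052, and the median over the tested genes turned from -0.34 to 0.03. Without both libraries of replicate 3 they were 659 and 3107. With 1 library left out they ranged from 59 to 458 and from 332 to 2734, and the replicate effects from 152 to 3607. voom called 705 replicate effects. With the replicate block 458 genes were called higher and 2679 lower, and no call of a Schlafen member changed. Interferon-stimulated genes called lower numbered 3 without the filter, 4 after median of ratios scaling, 19 with the replicate block, 31 without replicate 3 and 1 to 31 with 1 library left out. Quiescence genes called lower numbered 2 after median of ratios scaling, 9 with the block, 8 without replicate 3 and 1 to 7 with 1 library left out, and those called higher 1 after that scaling and 0 to 1 with 1 library left out. tRNA genes called higher numbered 2 after that scaling, 2 without replicate 3 and 0 to 2 with 1 library left out, and those called lower 4 without replicate 3 and 0 to 5 with 1 library left out. Uncalled genes near 0 changed sign: Gm20234 (0.16) and Slfn5os (0.06) after median of ratios scaling, Gm20234 (0.11), Bst2 (-0.27) and Rtraf (-0.05) without replicate 3, and with 1 library left out Gm20234 (-0.20 to 0.10), Slfn5os (-0.99 to 0.24), Bst2 (-0.75 to 0.50) and Rtraf (-0.03 to 0.18). The cause was not tested. At 26°C, Slfn8, Slfn1 and Slfn2 rested on 8 to 55 reads a library, which limits the precision of their ratios.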
